A study of Zea mays with 6 samples.

Results

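The genes described here encode enzymes that split sucrose and carry its fructose through glycolysis in the maize shoot tip. They are the sucrose synthase genes ss2 (LOC542247, also listed as sus1, probe set Zm.3550.1.A1_at) and sus2 (LOC542091, Zm.3478.1.S1_a_at), the fructokinase gene frk2 (LOC542108, Zm.711.1.S1_at), the phosphohexose isomerase gene phi1 (LOC542313, Zm.3318.1.S1_at) and the enolase genes eno1 (LOC732811, Zm.14043.1.S1_a_at) and eno2 (LOC542316, Zm.410.1.A1_at). They were chosen by name, as 6 of the 1108 genes named by probe sets with a single gene symbol, and each is followed on 1 probe set out of 17621 on the array besides its controls. The array is an Affymetrix maize array, on which each transcript is read by a set of short probes and summarised as 1 intensity. All 6 passed the filter on dim probe sets, which required 3 arrays at or above their own 40th percentile, and 10661 probe sets passed in all.

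RNA came from shoot tips of 14-day seedlings in the B73 inbred background, taken as shoot apical meristems with leaf primordia attached. DpDf (duplicate-deficient) plants arose from the translocation T5-6b and carried the greater part of the short arm of chromosome 5 in 3 copies and the end of the short arm of chromosome 6 in 1 copy. Wild-type plants were their siblings from the same selfed DpDf parents and carried 2 copies of both segments. Each group had 3 pools of 8 plants, and each pool was read on 1 array, so 3 arrays a group set the precision. The arrays are called D1, D2 and D3 for the DpDf pools and W1, W2 and W3 for the wild-type pools, after the replicate numbers. The plants were sorted into pools with 1 marker tightly linked to the chromosome 5 breakpoint.

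Sucrose reaches the shoot tip through the phloem. Sucrose synthase cleaves it, reversibly and with UDP, into UDP-glucose and fructose. Fructokinase then phosphorylates the fructose, and phosphohexose isomerase interconverts the phosphates of fructose and glucose. Enolase acts near the end of glycolysis, where it forms phosphoenolpyruvate. Several maize genes of this route, among them eno1 and the sucrose synthase gene sh1, are known for induction by low oxygen in seedlings. By the RefSeq assembly Zm-B73-REFERENCE-NAM-5.0, ss2 and eno1 lie on chromosome 9, sus2, phi1 and eno2 on chromosome 1, and frk2 on chromosome 6. None of the 6 thus lies on the arm present in 3 copies. Whether frk2 lies in the chromosome 6 segment present in 1 copy is not known here, since the labels place that break by cytology and genetic map.

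Array W3 stood apart. Its Spearman correlation with any other array reached 0.932 at most, against 0.988 at least among the other 5, and its median intensity was 415.9 against 490.9 to 506.1. Over all probe sets tested, the median of the log2 differences between groups (always DpDf minus wild type here) was 0.18 with W3 and 0.02 without it. The members' differences are therefore given both ways, and a difference is to be read against these medians. A sign of RNA quality also moved with genotype. The 3′ over 5′ signal, averaged over 5 pairs of control probe sets, was 1.83 on the log2 scale in D1, 0.98 in D2 and 0.89 in D3, and it was 0.62, 0.70 and 0.34 for W1, W2 and W3. Every DpDf array thus exceeded every wild-type array, with D1 the highest. Of the shoot meristem markers, kn1 and a zfl1 probe set were above the 40th percentile on all arrays. Another zfl1 probe set and abph1 were under it on every array, fea2 only on W3 (7.63) and lg3 only on D3 (8.15). Of 11 leaf primordium markers, 5 were above it on all arrays (yab14, rld1, rs2, ocl1 and ocl4). The markers lg1, lg2, ns1, ns2 and yab9 were under it on every array, and yab10 only on W2 and W3. Among green leaf genes, all 4 matched (rbcs, pep1, pdk1 and me1) had a probe set above it on all arrays. A further pdk1 probe set was under it on every array. In such bulk tissue, fewer cells of a type and less RNA per cell cannot be told apart.

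No difference between DpDf and wild type passed the test in any of the 6 genes, whether or not W3 was used. The test was that of limma over all 10661 probe sets, with a Benjamini-Hochberg adjusted p under 0.05 as the threshold. It called 0.0281% of all probe sets with all 6 arrays, none of them lower in DpDf (0.0%), and 3.33% without W3. The largest difference among the member probe sets was that of sus2. It was higher in DpDf by 0.70 on the log2 scale with all 6 arrays and by 0.39 without W3. Without W3, the member probe sets of the other 5 genes all read slightly lower in DpDf, by differences of -0.15 for eno1 to -0.02 for phi1. A second eno1 probe set lay further from 0 in that setting, at -0.42 (limma adjusted p = 0.0834). Over the 6 members the median difference was -0.01 with all 6 arrays and -0.07 without W3, against 0.18 and 0.02 over all probe sets tested.

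**Figure D1:**
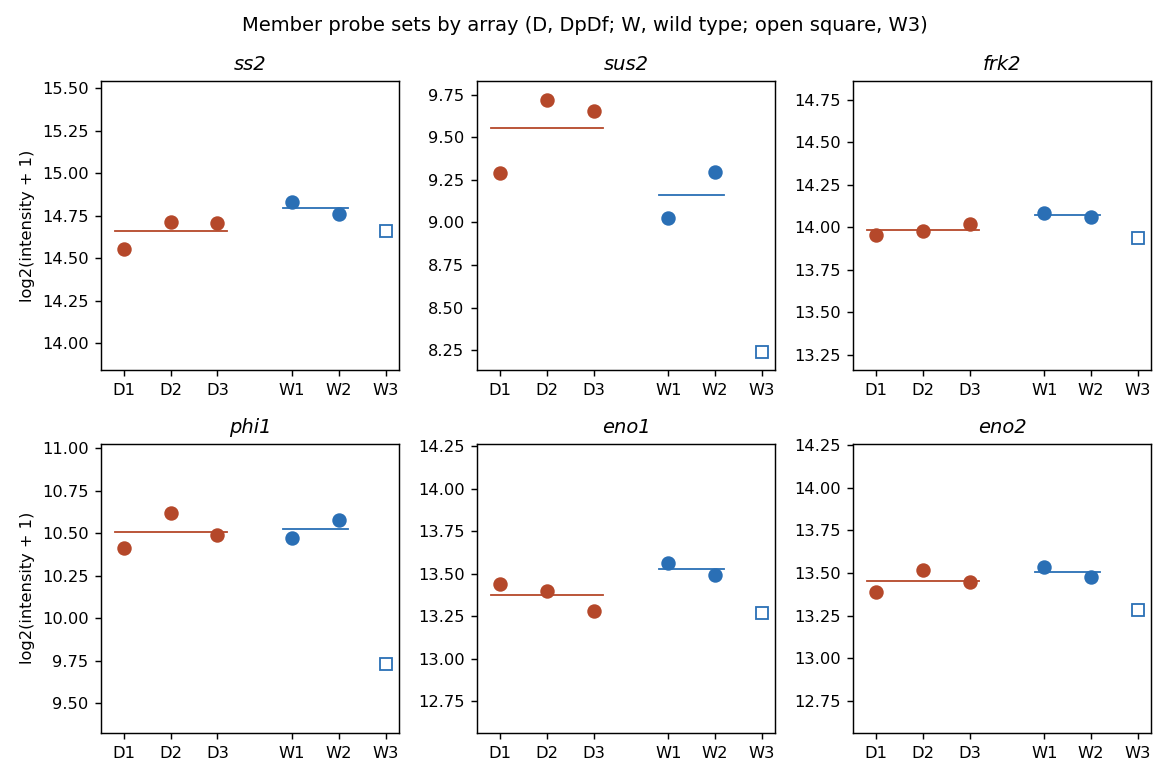
Log2(intensity + 1) of the 6 member probe sets on each array, 1 panel a gene, with every vertical axis spanning the same number of log2 units. Circles are single arrays, the open square is W3, and lines are the mean of the 3 DpDf arrays and of W1 and W2. W3 fell to 8.24 for sus2 and 9.73 for phi1, far from the other arrays, but stayed near them for the 4 bright probe sets.

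Sucrose synthases come first in the route. The ss2 probe set read 14.56 in D1, 14.72 in D2 and 14.71 in D3, against 14.83 in W1, 14.76 in W2 and 14.66 in W3, in log2(intensity + 1). D1 was the lowest of the 6 arrays and W1 the highest, and the groups overlapped only through W3. The DpDf mean was 14.66 ± 0.09 and the wild-type mean 14.75 ± 0.09 (SD, n = 3 each). The difference was -0.09 ± 0.12 (SE) with a 95% interval of -0.38 to 0.20 (limma adjusted p = 0.708). Without W3 it was -0.14, with an interval of -0.33 to 0.06 (limma adjusted p = 0.383). Intensities of ss2 ran from 24090 to 29092, which placed it above 99.9% of probe sets on every array, near the top of the measured range.

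The second sucrose synthase probe set, sus2, read 9.29, 9.72 and 9.65 in D1 to D3, against 9.03, 9.30 and 8.24 in W1 to W3. D2 and D3 lay above all wild-type arrays, while D1 lay just under W2. Between pools of the same number, which share a planting, sus2 was higher in DpDf in 3 of 3 pairs, by 0.26, 0.43 and 1.41. The largest of these was the pair with W3. At least 23.2% of all probe sets tested were also higher in every pair, since that share had every DpDf array above every wild-type array. The DpDf mean was 9.56 ± 0.23 and the wild-type mean 8.86 ± 0.55 (SD, n = 3 each). This was a difference of 0.70 ± 0.28 (SE), or 1.63-fold, with a 95% interval of 0.04 to 1.36, and it failed the correction for multiple tests (limma adjusted p = 0.499). Much of its size came from W3, which read 0.92 below the mean of the other wild-type arrays and under its own 40th percentile of 8.28. Without that array the difference was 0.39 ± 0.15 (SE, 1.31-fold, interval 0.05 to 0.74, limma adjusted p = 0.204). Unadjusted p-values were 0.0412 and 0.032, and 9.76% and 20.3% of all probe sets had an unadjusted p under 0.05 in the same fits.

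D1, the array of highest 3′ over 5′ signal, was also the lowest DpDf array for sus2. With both that array and W3 left out, a setting chosen after seeing the data, sus2 rose by 0.53 ± 0.10 (SE, limma adjusted p = 0.0285). This rests on 2 arrays against 2, in a fit that called 5.81% of all probe sets higher in DpDf. With the replicate number as a block and replicate 3 of both groups left out, sus2 lay at 0.35 (limma adjusted p = 0.234). The part of RNA quality in the sus2 values was not tested.

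**Figure D2:**
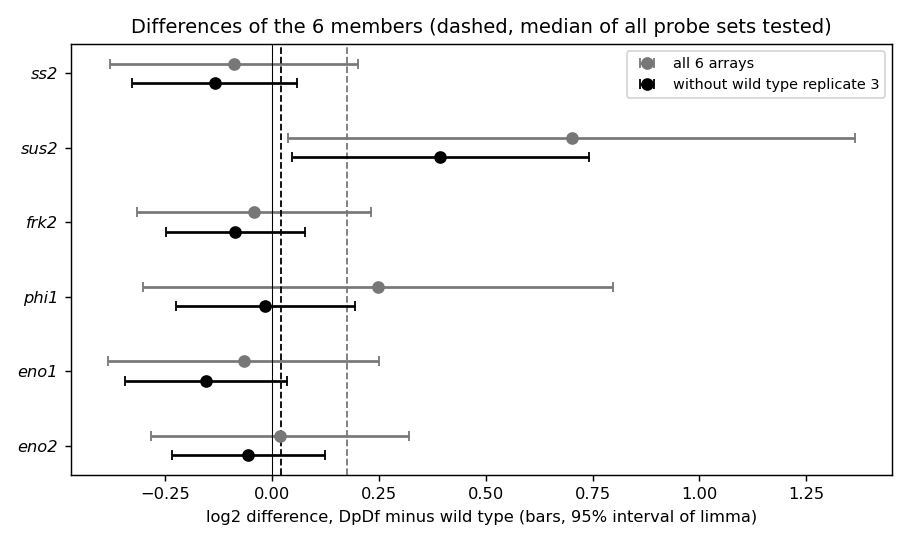
Log2 difference (DpDf minus wild type) of each member on the horizontal axis, with its 95% interval from limma, in grey for all 6 arrays and in black without W3. Dashed lines mark the median of all probe sets tested, 0.18 and 0.02. The 2 intervals of sus2 lie above 0 before correction, and those of the other 5 genes include 0.

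Fructose released by sucrose synthase is taken up by fructokinase. The frk2 probe set read 13.96, 13.98 and 14.02 in DpDf and 14.08, 14.06 and 13.94 in wild type. The 3 DpDf arrays lay within 0.06 of each other and below W1 and W2, but W3 was the lowest of all. The difference was -0.04 ± 0.12 (SE, interval -0.32 to 0.23, limma adjusted p = 0.851). Without that array the interval was -0.25 to 0.08 (limma adjusted p = 0.493).

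The phi1 probe set, for phosphohexose isomerase, read 10.41, 10.62 and 10.49 in DpDf and 10.47, 10.58 and 9.73 in wild type. On 5 arrays the values of both groups intermingled within 0.21, and only W3 was apart, by 0.79 below the mean of its group's other arrays. The difference with all 6 arrays, 0.25 ± 0.23 (SE, limma adjusted p = 0.611), therefore rested on that array, and without it the value was -0.02 (interval -0.23 to 0.19, limma adjusted p = 0.93).

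At the enolase step, the eno1 probe set read 13.44, 13.40 and 13.28 in DpDf and 13.56, 13.49 and 13.27 in wild type. All DpDf arrays lay below W1 and W2 and above W3. The difference was -0.07 ± 0.13 (SE, limma adjusted p = 0.795) with all 6 arrays. Without W3 it was -0.15 ± 0.08 (SE, interval -0.34 to 0.04, limma adjusted p = 0.319). The eno2 probe set read 13.39, 13.52 and 13.45 in DpDf and 13.54, 13.48 and 13.28 in wild type, so that the groups overlapped in either setting. Its differences were 0.02 ± 0.13 and, without W3, -0.06 ± 0.08 (SE, limma adjusted p = 0.944 and adjusted p = 0.695).

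Separation of this kind was common on the array. Without W3, ss2, frk2 and eno1 had every DpDf array below both wild-type arrays left, which is 3 of the 6 members, and 17.5% of all probe sets tested did so too. The reverse order, which no member showed, held for 25.4%. With all 6 arrays, no member was free of overlap, whereas 3.61% of probe sets had every DpDf array below and 23.2% every DpDf array above the wild-type arrays. The 4 bright members, ss2, frk2, eno1 and eno2, can be set beside the 544 probe sets whose mean log2 value was at least 13. Leaving out W3, the median of those 544 was -0.02, with quartiles of -0.11 and 0.08, and the 4 genes lay between -0.15 and -0.06.

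How far W3 departed differed between the members. It read 0.92 below the mean of W1 and W2 for sus2, 0.79 below for phi1, 0.26 below for eno1 and 0.22 below for eno2. For ss2 and frk2 the gap was 0.14 and 0.13. The dimmer members, sus2 and phi1, were thus those in which this array moved the comparison most.

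Paralogs were compared through their difference within each array, since the brightness of different probe sets does not rank their transcripts and only the change of that difference between groups can be read. For ss2 minus sus2 the values were 5.26, 4.99 and 5.06 in DpDf and 5.80, 5.47 and 6.42 in wild type. Every DpDf array lay below every wild-type array, also without W3. Between D1 and W2, the closest arrays of the groups, the gap came from ss2 (14.56 and 14.76), as sus2 read 9.29 and 9.30. D1 had the highest 3′ over 5′ signal, whose part here was not tested. The means were 5.10 ± 0.14 and 5.89 ± 0.48 (SD, n = 3 each), which is a change of -0.79 (two-sided exact permutation test, p = 0.1, the lowest p this design allows). Without W3 the change was -0.53 (exact permutation p = 0.2, again the smallest possible). Neither can pass 0.05 in a design of this size. Of the change, 0.70 was the difference of sus2 and -0.09 that of ss2. The ss2 values lie near the top of the measured range, and whether that range limited them was not tested. The sus2 value of W3 lies under the 40th percentile, and the change was larger with this array than without it.

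For eno1 minus eno2 the values were 0.06, -0.12 and -0.17 in DpDf and 0.03, 0.02 and -0.02 in wild type. D1 was the highest of the 6 arrays and D2 and D3 were the lowest, so the groups overlapped. The change was -0.09 (two-sided exact permutation p = 0.4), and -0.10 without W3 (exact permutation p = 0.6). The wild-type pools spread by 0.02 (SD) and the DpDf pools by 0.12. Without D1 the change was -0.15 (exact permutation p = 0.2), with the groups then apart. Probe sequences were not used here, so reads of 1 paralog by the probes of another were not tested.

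**Figure D3:**
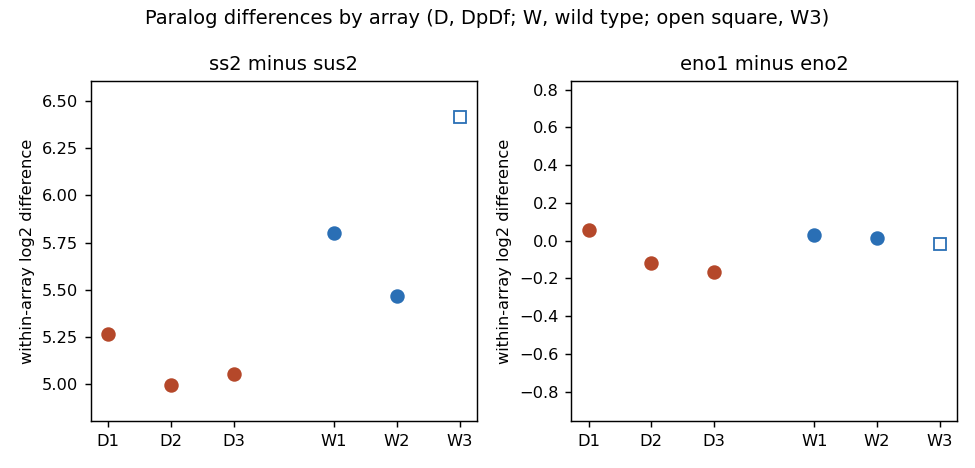
Within-array log2 difference between paralogs for each array, ss2 minus sus2 on the left and eno1 minus eno2 on the right, on axes of equal span. The 3 DpDf arrays of ss2 minus sus2 lie at 4.99 to 5.26, below the wild-type arrays at 5.47 to 6.42, whereas those of eno1 minus eno2 span the wild-type values.

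Only eno1 had further named probe sets on the array, and its 3 probe sets were not alike. A second one read 11.72, 11.93 and 11.78 in DpDf and 12.34, 12.12 and 11.64 in wild type. All DpDf arrays lay below W1 and W2, as with the member probe set. Its difference without W3 was larger, -0.42 ± 0.10 (SE, interval -0.66 to -0.18), and still missed the threshold (limma adjusted p = 0.0834). Its value in the full set was -0.22 (limma adjusted p = 0.596). The remaining one, at 5.52 to 6.55, lay under the 40th percentile on all arrays, did not pass the filter and was tested only in the setting without a filter, with all 6 arrays, at -0.44 (limma adjusted p = 0.562). The second minus the member probe set was -1.72, -1.46 and -1.50 in DpDf and -1.22, -1.37 and -1.62 in wild type, with the lowest value in D1.

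The sucrose synthase gene sh1, a paralog of ss2 and sus2 named here after its values were seen, showed a wider gap between the 2 of its 3 probe sets that passed the filter. The other one, at 5.90 to 6.68, did not pass it. The brighter read 12.08, 12.35 and 12.24 in DpDf and 12.31, 12.25 and 11.82 in wild type, with a difference of 0.10 with all 6 arrays and -0.05 without W3 (limma adjusted p = 0.769 and adjusted p = 0.77). The dimmer read 8.53, 10.21 and 10.48 in DpDf and 10.93, 10.62 and 10.15 in wild type, with a difference of -0.83 with all 6 arrays (limma adjusted p = 0.562) and -1.03 without W3 (limma adjusted p = 0.314). Its low value in D1 stood on the array with a 3′ over 5′ signal of 1.83. Leaving out D1 gave -0.22 (limma adjusted p = 0.855), and leaving out both D1 and W3 gave -0.43 (limma adjusted p = 0.105). The size of this difference thus depended on D1, and the part of RNA quality in it was not tested.

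**Figure D4:**
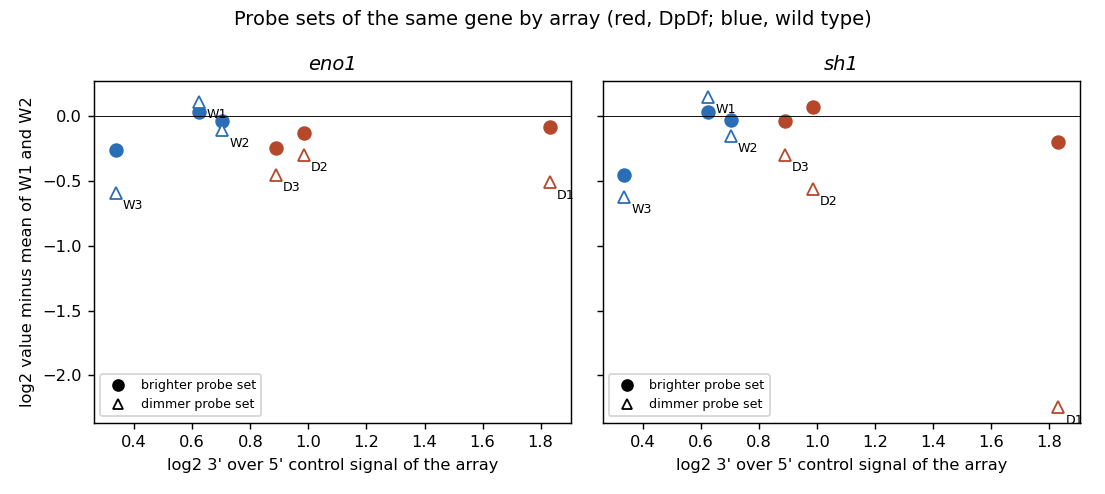
Log2 value minus the mean of W1 and W2, for the probe sets of eno1 and of sh1 that passed the filter, against the 3′ over 5′ control signal of each array on the log2 scale. Filled circles are the brighter and open triangles the dimmer probe set. The dimmer sh1 probe set is lowest on D1, which has the highest control signal, 1.83. On that array the brighter one lies less far below 0, reading 12.08 against 12.31 in W1 and 12.25 in W2.

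Other genes of the route were taken from 4 lists of symbols, without the 6 members. Of 31 symbols for the entry of sucrose (other sucrose synthases, invertases, hexose kinases and sugar carriers) 7 genes were found and 5 passed the filter, with 6 probe sets. Their median difference was 0.03 and none passed the test with all 6 arrays. When W3 was left out, 1 was called higher, as were 3.07% of all probe sets, and 0 lower, with a median of -0.17. The called gene was ivr2 (LOC542324), an invertase gene that lies in the stretch of chromosome 5 counted here to its short arm. DpDf plants carry most of that arm in 3 copies, and whether ivr2 lies in the duplicated part was not tested. Invertase splits sucrose into glucose and fructose by hydrolysis, the alternative to sucrose synthase.

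The ivr2 probe set read 13.24, 13.25 and 13.25 in DpDf and 12.73, 12.67 and 12.59 in wild type. All DpDf arrays lay above all wild-type arrays, and they spread by less than the wild-type ones. It rose by 0.54 ± 0.07 (SE, limma adjusted p = 0.0155) without W3. With all 6 arrays the difference was 0.58 (limma adjusted p = 0.302), and with replicate 3 of both groups left out and the replicate number as a block it was 0.54 (limma adjusted p = 0.106). In the same setting without W3, the fructokinase gene frk1 lay at -0.29 (limma adjusted p = 0.214), beside -0.09 for frk2. There the sucrose transporter gene sut1 lay at -0.33 (limma adjusted p = 0.264) and the cell wall invertase gene incw1 at 0.20 (limma adjusted p = 0.301). In the full set of arrays frk1 lay at -0.04, sut1 at -0.42 and incw1 at 0.29.

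Of 35 symbols for glycolysis between hexose phosphate and pyruvate, 6 genes were found and 5 passed the filter, with 7 probe sets. Their median difference was -0.04 and none was called with all 6 arrays. When W3 was left out, 3 probe sets were called lower, as were 0.263% of all probe sets, and 0 higher, from the glyceraldehyde-3-phosphate dehydrogenase genes gpc3 and gpc4. All 7 lay below 0, with a median of -0.30, against 0.02 over all probe sets tested. Apart from ald1, these were all probe sets of gpc1 to gpc4, so the list mostly reads 1 step of glycolysis. The 2 called gpc3 probe sets nearly repeat each other (10.24 and 10.22 in D1), so the calls are not independent. Without W3, the aldolase gene ald1, which acts between phi1 and the enolases, lay at -0.08 (limma adjusted p = 0.528). There gpc1 and gpc2 lay at -0.08 and -0.16. In that setting gpc3 lay at -0.60 and -0.62 in the called probe sets and -0.30 in the other, and gpc4 at -0.63. All were further from 0 than the member probe sets of eno1 (-0.15) and eno2 (-0.06). The second eno1 probe set, at -0.42, was further from 0 than the gpc3 probe set at -0.30. In the full set of arrays the called probe sets of gpc3 lay at 0.05 and -0.02, its other one at -0.15, gpc4 at -0.37, gpc2 at -0.12, gpc1 at -0.04 and ald1 at -0.01. For the called gpc3 probe sets the difference thus appeared only once W3 was left out, which read 9.06 and 9.21 against 10.95 to 11.07 in W1 and W2. Calls of gpc3 and gpc4 were absent with the block and replicate 3 of both groups left out, with adjusted p-values of 0.0851 and 0.116 at the lowest of each gene.

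Of 13 symbols for fermentation and haemoglobin, 7 genes were found and 5 passed the filter, with 5 probe sets. Their median difference was -0.03 with all 6 arrays and -0.12 without W3. The test called none of these probe sets in the full set of arrays. When W3 was left out it called the haemoglobin gene hb2 lower, as were 0.263% of all probe sets, and 0 higher. This gene lies on chromosome 6, and whether it lies in the segment that DpDf plants carry in 1 copy was not tested. The hb2 probe set read 8.47, 8.56 and 8.32 in DpDf and 9.32, 9.02 and 8.60 in wild type, with every DpDf array below every wild-type array. Its difference was -0.53 in the full set (limma adjusted p = 0.47) and -0.72 without W3 (limma adjusted p = 0.0244). The call was lost with the block and replicate 3 of both groups left out, at -0.65 (limma adjusted p = 0.106). In the setting without W3, the alcohol dehydrogenase gene adh2 lay at 0.34 (limma adjusted p = 0.104) and adh1 at -0.05. The pyruvate decarboxylase gene pdc3 lay at -0.12 (limma adjusted p = 0.435) and the aldehyde dehydrogenase gene rf2b at -0.17 (limma adjusted p = 0.398). In the full set adh2 lay at 0.37, adh1 at 0.07, pdc3 at -0.03 and rf2b at -0.29. Of 28 symbols for starch and sucrose synthesis, 16 genes were found and 9 passed the filter, with 9 probe sets. None was called in either setting. Their median difference was 0.24 with all 6 arrays, with 8 above 0, and 0.05 without W3, with 6 above 0. The medians of all probe sets tested were 0.18 and 0.02. Nearest to the threshold was sbe1, a starch branching enzyme gene counted to the same chromosome arm as ivr2, at 0.54 without W3 (limma adjusted p = 0.104). The starch synthase gene ss1 lay at 0.22 (limma adjusted p = 0.186), an ADP-glucose pyrophosphorylase gene listed as agp2 (LOC542737) at 0.13 and the granule-bound starch synthase gene gbssiia at -0.08. Their values in the full set were 0.52 for sbe1, 0.31 for ss1, 0.20 for agp2 and 0.03 for gbssiia.

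**Figure D5:**
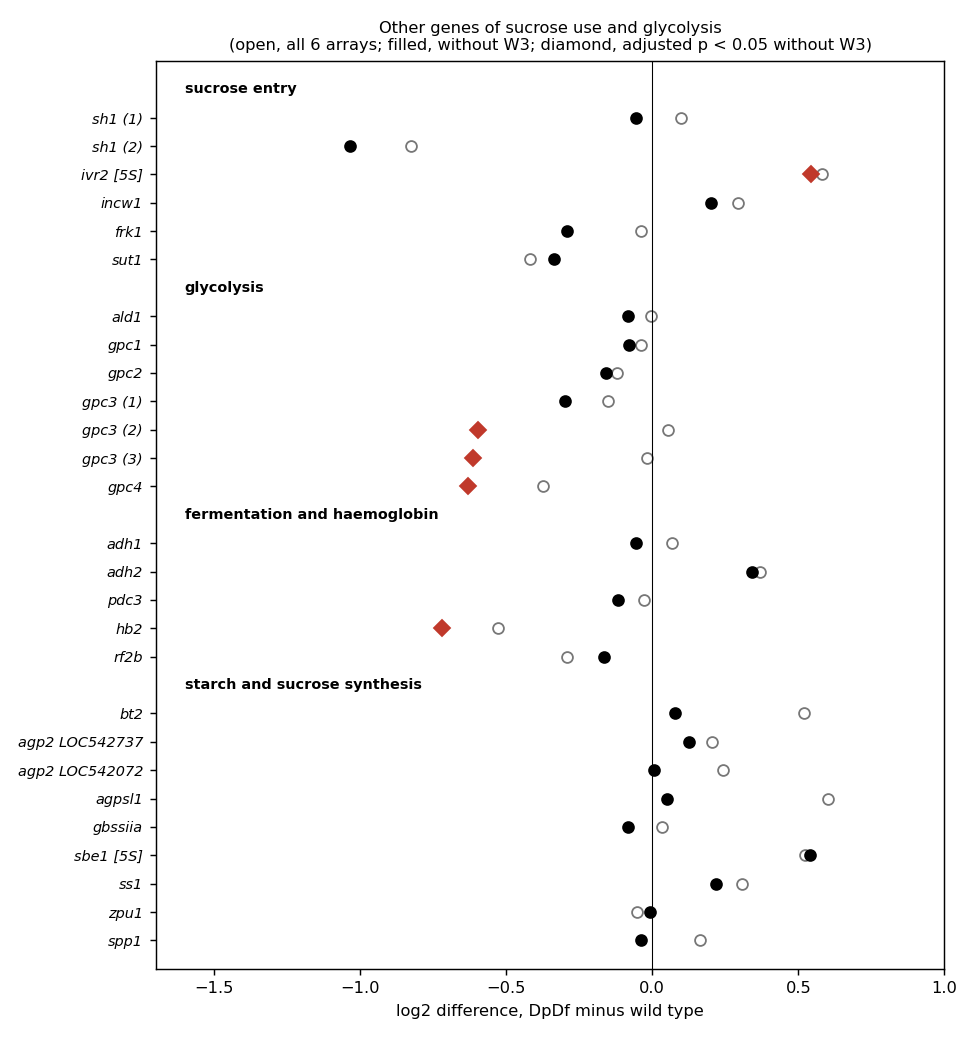
Log2 difference (DpDf minus wild type) of the probe sets of the 4 lists that passed the filter, with open circles for all 6 arrays and filled symbols without W3. Diamonds have an adjusted p under 0.05 without that array, and genes marked 5S were counted to the chromosome 5 short arm. The diamonds are ivr2 on the right, and gpc3, gpc4 and hb2 on the left.

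The members also differed in the other genes whose values lay closest to theirs over the 6 arrays. The measure is small for any probe sets that vary little, so it does not show a shared course. For sus2 and phi1 the nearest genes shared mainly the low value of W3. Likeness was taken as the root mean square difference, in log2 units, of values centred on each probe set's mean, among 971 named probe sets, with W3 included, and it is a description with no test. The nearest genes to ss2 were HMG I/Y-2 and the tonoplast aquaporin gene tip1 (both 0.03), and those nearest to sus2 were gpm645 (0.11) and the derlin gene der2 (0.14). Between members this measure ran from 0.05 to 0.10 among ss2, frk2, eno1 and eno2, and from 0.25 to 0.49 between sus2 and any other member. Nearest to frk2 were hsp70-5 and hon101 (both 0.03), to phi1 LOC541975 (0.03) and the ROP GTPase gene rop3 (0.05), to eno1 CRH and the actin-depolymerizing factor gene ABP3 (0.03 and 0.04), and to eno2 LOC542641 and AR6 (both 0.04).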

How the data were processed

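Total RNA of 3 DpDf and 3 wild-type pools was labelled with biotin by a one-cycle kit and hybridised to 1 array each, per the labels' protocols. Linear intensities were deposited by the authors as a single value for a probe set on an array. GCOS 1.2 and GCRMA were used, per the submitters' processing notes, with role and order not given. How arrays were scaled is not given in the sources used here.

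Values were turned into log2(intensity + 1), 113 controls were set aside, and probe sets with at least 3 arrays at or above their own 40th percentile were kept (10661, or 60.5%). Groups were fitted with limma 3.58.1 in R 4.3.3 without a block, and p-values were adjusted by Benjamini-Hochberg across every probe set kept. The code was run on simulated data with 200 probe sets changed, which does not show how small a difference the test can find here. Paralog differences were compared by two-sided exact permutation tests over arrays. With the replicate block, the signs of the differences within pairs were flipped instead. Names came from the platform table, updated through gene identifiers with RefSeq, and 1452 probe sets had a single symbol. Genes in the first 40% of chromosome 5 in that assembly were counted to its short arm. A symbol shared with an unrelated gene was left out of the lists. Per the labels, pools of the same number came from the same planting, so the numbers pair them. The correlation of their deviations was 0.076, -0.164 and 0.195 for numbers 1 to 3.

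The members and lists were chosen with earlier results of these data known. The 6 members, the list members called in either setting, the 4 of smallest p in each list and the 2 nearest genes of each member were named. The alternatives left out single arrays, added the block, and changed normalization, pseudocount and filter.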

Additional observations from a re-analysis of the deposited data

How the results depend on the processing

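With single arrays left out, differences (DpDf minus wild type) ran from -0.14 to -0.04 for ss2, 0.39 to 0.92 for sus2, -0.09 to -0.02 for frk2, -0.0158 to 0.41 for phi1, -0.15 to -0.01 for eno1 and -0.0563 to 0.0701 for eno2, and none passed the test. In those settings ss2 minus sus2 ran from -1.005 to -0.53 and eno1 minus eno2 from -0.15 to -0.04. The directions of ss2, sus2, frk2, eno1 and both paralog differences were kept in every alternative run for them. Those of phi1 and eno2 were not. For phi1 the value was -0.0158 without W3, -0.0063 with replicate 3 of both groups left out and the block, and, without W3, -0.0607 with quantile normalization and -0.0335 with array medians subtracted. For eno2 it was -0.0152 without D2, -0.0563 without W3, and -0.0548 with replicate 3 of both groups left out and the block. With all 6 arrays, eno2 lay at -0.0373 with quantile normalization and -0.0824 with array medians subtracted, and without W3 at -0.0303 and -0.0739. With D1 also left out it lay at -0.0243. None of these values passed the test, and the cause was not tested.

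The only setting in which a member was called was sus2 at 0.53 (limma adjusted p = 0.0285) without W3 and D1. Over its other alternatives the adjusted p of sus2 ran from 0.204 to 0.855. Its 95% interval included 0 with quantile normalization, at -0.04 to 1.32 with all 6 arrays and -0.01 to 0.72 without W3. That interval also included 0 without D2 and without D3, and lay above 0 in the other settings. The filter that asked for all 6 arrays removed sus2. With the replicate number as a block and all 6 arrays, sus2 lay at 0.70 (limma adjusted p = 0.397), and no call among the members changed. For ss2 minus sus2, flipping the sign of the difference in each pair gave an exact sign-flip p = 0.25. This is the lowest p those pairs allow, so the test could not pass 0.05.

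Probe sets called numbered 3 with all 6 arrays, 2 to 355 with single arrays left out, and 1 with the filter on all 6 arrays. Without W3 they numbered 306 with quantile normalization, 312 with array medians subtracted and 753 with D1 also left out. Calls in the lists with single arrays left out numbered 0 to 1 for sucrose entry, 0 to 3 for glycolysis and 0 to 1 for fermentation and haemoglobin. In the 3 further settings without W3 they were 1 for sucrose entry, 2 or 3 for glycolysis, 1 for fermentation and haemoglobin, and, with D1 also left out, 1 for starch and sucrose synthesis (sbe1). The last 3 settings were chosen after seeing the data. Nothing is known here of signal over background beyond the 40th percentile, under which sus2 fell in W3.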
